A study of Mus musculus with 6 samples.

Results

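Open chromatin at 41 interferon-stimulated genes was examined in splenic immature B cells by ATAC-seq, an assay that marks accessible DNA through insertion of adapters by a transposase. The 41 genes were chosen by name, for their place in the interferon response, among 21885 mouse genes in all, and each of the 41 was found in the gene table. The choice was made with earlier results of these data known. A peak was assigned to a gene where it lay within 1 kb of either end of the gene (a gene-end peak), or anywhere from 10 kb before to 10 kb after the gene (its neighbourhood). The strength of a peak is given as the percentile of its −log10 q within its own list, 100 being the strongest.

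The cells were sorted as B220+CD93+ from spleens of Tcrd-GDL mice, in which γδ T cells express a reporter together with the receptor for diphtheria toxin. The DTx group comprised 3 libraries from mice given diphtheria toxin (DTx) as 15 ng per g body weight, injected into the peritoneum 2 times at an interval of 48 h, and analysed on day 8 counted from the first injection. The untreated group comprised 3 libraries from mice of the same strain that received no toxin. Both groups carry the reporter and the receptor, so removal of γδ T cells and other effects of the toxin cannot be told apart, and these lists do not measure how complete the removal was. The sources used here do not give the ages and sexes of the mice, or whether each library came from its own mouse, so p-values speak only of the spread between libraries, which could be technical.

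Interferons are cytokines that bind paired receptors at the cell surface, activate the kinases of the JAK family and lead to phosphorylation of STAT proteins. These enter the nucleus and bind DNA at the interferon-stimulated response element or at the gamma-activated site, and so induce antiviral effectors, nucleic acid sensors and regulators of the response itself, and in B cells the type I response is also known for tuning Toll-like receptor signalling.

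The response element core was searched for as GAAA, any 2 bases and GAAA again, on both strands, from 250 bases before to 50 bases after the start site, in the 32 genes of the set that the RefSeq promoter table (GRCm38.p6) holds. It was present in 16 of the 32 windows (50%), against 551 of 15751 (3.50%) windows of all genes with a start site in that table. A match describes letters only and is not a measured binding site. The 250 bases before the start site are printed for 8 of these genes, 5′ to 3′ in the direction of transcription. The 8 were taken in a fixed order that began with genes not called at a gene end in every library. They therefore do not stand for the 16 genes as a whole. Capitals mark the matches on either strand, and matches that overlap run together.
Stat2, chr10:128270248-128270497, plus strand: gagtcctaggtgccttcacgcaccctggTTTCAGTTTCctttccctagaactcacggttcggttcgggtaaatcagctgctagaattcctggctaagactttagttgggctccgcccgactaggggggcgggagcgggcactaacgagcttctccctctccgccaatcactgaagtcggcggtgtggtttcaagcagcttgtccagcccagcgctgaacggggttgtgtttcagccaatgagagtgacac
Ifit3, chr19:34583279-34583528, plus strand: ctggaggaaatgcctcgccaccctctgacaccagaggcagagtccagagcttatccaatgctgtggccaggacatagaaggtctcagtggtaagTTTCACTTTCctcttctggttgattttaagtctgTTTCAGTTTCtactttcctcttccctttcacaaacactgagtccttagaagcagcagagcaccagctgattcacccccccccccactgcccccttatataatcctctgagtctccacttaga
Rsad2, chr12:26456453-26456702, minus strand: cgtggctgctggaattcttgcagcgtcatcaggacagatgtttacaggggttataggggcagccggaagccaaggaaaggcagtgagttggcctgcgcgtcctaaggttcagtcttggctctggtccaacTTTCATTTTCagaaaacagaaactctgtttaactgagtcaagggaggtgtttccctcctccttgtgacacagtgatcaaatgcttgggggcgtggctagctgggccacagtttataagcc
Trim30a, chr7:104465194-104465443, minus strand: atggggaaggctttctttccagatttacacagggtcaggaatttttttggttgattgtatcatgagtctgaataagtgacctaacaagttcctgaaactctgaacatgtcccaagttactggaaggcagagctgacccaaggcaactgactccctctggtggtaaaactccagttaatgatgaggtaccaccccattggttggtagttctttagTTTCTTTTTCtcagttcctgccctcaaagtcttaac
Gbp3, chr3:142559794-142560043, plus strand: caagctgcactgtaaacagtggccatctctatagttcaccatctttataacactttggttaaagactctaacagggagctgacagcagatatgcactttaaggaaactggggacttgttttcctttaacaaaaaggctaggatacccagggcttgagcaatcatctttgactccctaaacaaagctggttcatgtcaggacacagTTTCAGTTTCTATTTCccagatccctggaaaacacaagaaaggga
Oas1a, chr5:120907526-120907775, minus strand: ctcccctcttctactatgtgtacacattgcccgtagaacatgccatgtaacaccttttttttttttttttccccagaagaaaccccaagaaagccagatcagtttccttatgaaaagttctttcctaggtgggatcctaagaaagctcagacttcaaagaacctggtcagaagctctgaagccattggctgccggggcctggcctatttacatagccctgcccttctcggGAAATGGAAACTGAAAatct
Oas3, chr5:120777660-120777909, minus strand: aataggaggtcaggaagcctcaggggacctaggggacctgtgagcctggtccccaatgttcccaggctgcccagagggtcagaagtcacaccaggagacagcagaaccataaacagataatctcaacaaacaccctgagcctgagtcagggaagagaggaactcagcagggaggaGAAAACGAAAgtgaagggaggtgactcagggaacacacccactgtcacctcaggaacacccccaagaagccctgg
Isg15, chr4:156200819-156201068, minus strand: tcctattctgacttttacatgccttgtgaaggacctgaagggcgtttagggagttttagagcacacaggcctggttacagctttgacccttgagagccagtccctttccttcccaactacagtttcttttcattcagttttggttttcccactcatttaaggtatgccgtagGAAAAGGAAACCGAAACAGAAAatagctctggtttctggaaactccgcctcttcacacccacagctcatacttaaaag
The first 4 of these promoters lay under a peak at their matches in 6 of 6 libraries. The matches of Isg15, Oas1a and Oas3 lay under a peak in 2, 3 and 3 of the 6 libraries, and those of Gbp3 in none, as described with each gene.

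The DTx lists held 44661, 56266 and 60811 peaks and the untreated lists 36760, 42504 and 56503. Of these, DTx 1 and untreated 3 had the layout of the peak caller's narrow mode and the other 4 that of its broad mode, so each group held 1 narrow-mode and 2 broad-mode lists. Since a longer list alone calls more genes, groups were also compared in equal-length lists, made of each library's top 36760 peaks by −log10 q. These equal-length lists reached down to a −log10 q of 9.26, 6 and 8.10 in the DTx libraries and 1.02, 2.99 and 19.7 in the untreated libraries. At a gene end, peaks were present in 6 of 6 libraries for 11 of 12 B lineage marker genes, 3 of 9 T cell genes (Cd3d, Cd5 and Cd28), 1 of 8 myeloid genes (Cd68) and 8 of 11 dendritic cell genes. Per library, 11 to 12 B lineage genes were called in DTx and 11 to 12 in untreated libraries, with 4 to 7 and 4 to 5 T cell genes, 3 to 4 and 2 to 4 myeloid genes, and 8 and 8 dendritic cell genes. No library called Cd3e, Cd8a, Lyz2, Adgre1, Csf3r, S100a8, Cd209a, Itgax or Ccr9. The dendritic genes called in every library include Bst2, which is in the interferon-stimulated set, and Tcf4 and Irf8, which B cells use as well. The others were Xcr1 (87.5 to 93.8), Zbtb46 (42.8 to 89.5), Flt3 (56.9 to 78.7), Clec9a (46.0 to 54.7) and Siglech (0.544 to 39.4). The part of other cell types in the interferon-stimulated peaks was not tested.

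Most interferon-stimulated genes had open chromatin at a gene end in both groups. A gene-end peak was called in all 6 deposited lists at 33 of the 41 genes (80.5%), against 10774 of the 21885 genes (49.2%). Only Rtp4 had none in any library, against 40.9% of all genes. Over the 33 genes the median percentile per gene across libraries ranged from 19.6 to 96.0, with a median of 81.5 and quartiles of 62.3 and 88.4. For the 10774 genes of the background the median was 84.4 with quartiles of 69.9 and 93.3. Thus 5 of the 33 genes (15.2%) reached the 90th percentile, against 35.2% of the background, and 3 of 33 (9.09%) lay under the 50th, against 10.02%. These shares describe genes chosen by name, with earlier results of these data known, and were not tested. Cells were pooled in each library, so a peak present in fewer cells and a weaker peak in every cell cannot be told apart.

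**Figure D1:**
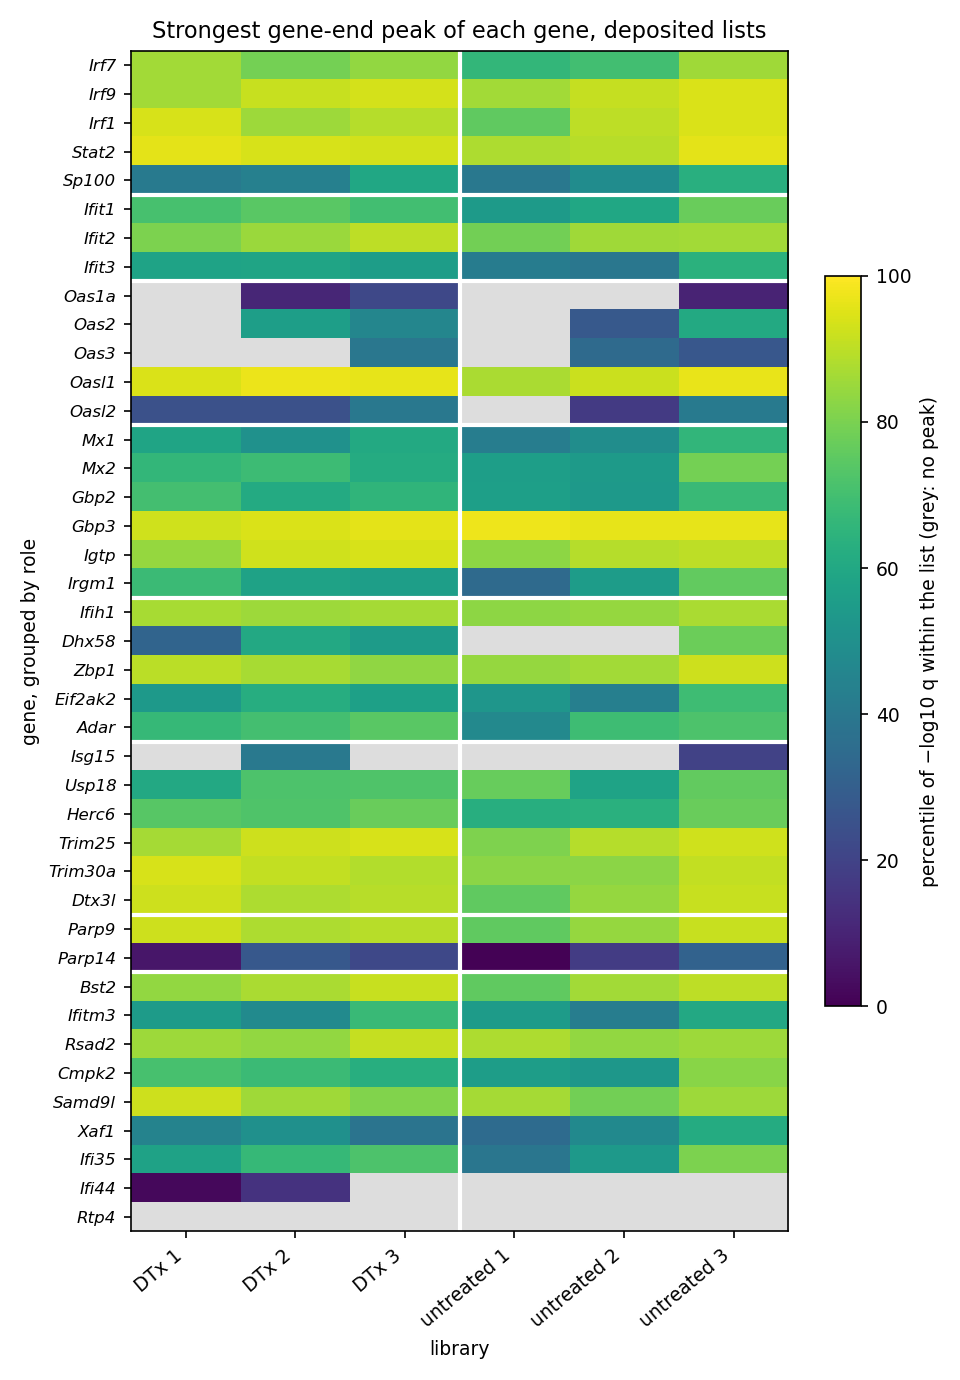
Percentile of −log10 q of the strongest gene-end peak (colour scale, 0 to 100) for each of the 41 genes, in rows grouped by role, in the 3 DTx and 3 untreated deposited lists, in columns; grey marks a gene with no gene-end peak in that list. Grey cells fall mostly on Oas1a, Oas2, Oas3, Isg15, Ifi44, Dhx58 and Rtp4, while the rows of Stat2, Irf9, Gbp3 and Oasl1 stay at 86.3 or above in all 6 lists.

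The transcription factors of the response had the highest median percentile of the role groups: 5 of 5 were called at a gene end in every library, with a median of 89.4. Stat2, whose product works with IRF9 at the response element, had its peak at chr10:128270160-128271108, over the start of the gene and over the response element core printed above. This peak also lay within 1 kb of an end of Apof. The percentiles of the peak were 95.8, 94.0 and 93.1 in DTx libraries 1, 2 and 3, against 87.7, 89.1 and 96.1 in untreated libraries 1, 2 and 3. The values of the groups overlapped, as they did in the deposited lists for every other gene of this family. Irf9, the DNA-binding partner of that protein, stood at 86.3, 91.7 and 93.7 in DTx and 86.3, 91.3 and 94.2 in untreated libraries. Its peak (chr14:55603637-55604835) also lay within 1 kb of an end of Rnf31, so the lists do not assign it to one of the pair. Irf1, a factor that interferon gamma induces strongly, stood at 94.0, 85.5 and 89.0 in DTx and 75.8, 89.9 and 94.3 in untreated libraries, with untreated 1 lowest. A second region, chr11:53763059-53764285, lay 5.73 kb before the start of Irf1 and between the 87.7th and 95.2nd percentile in all 6 lists. Irf7, which drives interferon gene expression, had 86.3, 78.9 and 84.0 in DTx and 66.3, 69.8 and 85.8 in untreated libraries.

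Sp100, a component of PML nuclear bodies, was the exception in this family. Its start-site peak (chr1:85649660-85651024) was of middling strength, at 40.7, 43.5 and 59.6 in DTx and 39.9, 48.5 and 63.0 in untreated libraries. The strongest peak of the gene lay elsewhere: chr1:85703280-85704152, inside the gene and 5.85 kb from its higher-coordinate end, stood at 99.1, 99.7 and 99.8 in DTx and 98.8, 99.4 and 99.8 in untreated libraries. This was the highest percentile of any region near the 41 genes, in the 6 lists alike. A gene table without exons was used, so intron and exon were not told apart.

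The IFIT genes, which encode proteins that bind viral RNA and block its translation, lie together on chromosome 19, and 3 of 3 were called at a gene end throughout. Ifit2 was the strongest, at 80.3, 84.9 and 89.9 in DTx and 78.5, 85.8 and 86.3 in untreated libraries. Ifit1 stood at 71.0, 74.6 and 69.7 in DTx and 54.6, 59.6 and 77.2 in untreated libraries, and its peak (chr19:34640400-34641139) lay near an end of Ifit1bl2 as well. Ifit3 was weakest, with 57.9, 58.4 and 55.6 in DTx and 41.9, 39.5 and 63.8 in untreated libraries. The Ifit3 peak (chr19:34582678-34583767) covered both capitalised matches of its promoter, 156 and 122 bases before the start site, in 6 of 6 libraries. The groups overlapped at all 3 genes.

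In the OAS family 1 of 5 genes was called at a gene end in all 6 libraries, against 32 of the other 36 genes of the set. These genes encode oligoadenylate synthetases, which on sensing double-stranded RNA make the second messenger that activates RNase L, and related proteins. Oas1a had a peak at its start (chr5:120907103-120907768) in DTx 2 and 3, at the 10.6th and 21.6th percentile, and in untreated 3, at 9.80. In DTx 1, untreated 1 and untreated 2 the nearest peak to an end of Oas1a was 59.1, 83.6 and 58.8 kb away. The overlapping response element cores that end 5 bases short of the Oas1a start were therefore covered in 3 of 6 libraries, by weak peaks. Oas3 had a peak at its start (chr5:120777586-120777949) in DTx 3, at 39.5, and in untreated 2 and 3, at 34.4 and 27.0. A peak inside Oas3, 1.71 kb from that end (chr5:120775395-120775974), was called in all 6 libraries, at 13.7, 41.98 and 44.6 in DTx and 10.5, 30.5 and 45.7 in untreated libraries. Oas2 had a gene-end peak (chr5:120749371-120750194) at 56.1 and 45.8 in DTx 2 and 3 and at 27.8 and 60.8 in untreated 2 and 3. Inside Oas2, chr5:120741923-120742524 was called in 6 of 6 libraries, between the 26.8th and 47.4th percentile. The libraries without these gene-end peaks came from both groups, and DTx 1 and untreated 1 lacked all 3 of them.

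The 2 OAS-like genes, adjacent to each other on chromosome 5, stood at opposite ends of the range. Oasl1, which in mice restrains production of IRF7, had 94.2, 97.2 and 96.1 in DTx and 87.4, 91.9 and 96.6 in untreated libraries, from a region at chr5:114921675-114923373. Oasl2 had 24.8, 24.8 and 39.95 in DTx libraries and, in untreated 2 and 3, 17.1 and 41.1. Untreated 1 had no Oasl2 gene-end peak, its nearest being 4.53 kb from an end of the gene.

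The 6 interferon-induced GTPase genes (Mx, GBP and immunity-related families) were each called at a gene end in every library, with a median percentile of 63.6. Gbp3, a guanylate-binding protein gene, was the strongest of the 41 genes by its lowest value, with 92.6, 94.5 and 95.8 in DTx and 97.6, 96.1 and 96.3 in untreated libraries. Its region (chr3:142560033-142561063) began 11 bases before the annotated start site and ran into the gene, so that both capitalised matches, 45 and 39 bases before the start, lay outside it in 6 of 6 libraries. Igtp, which encodes an immunity-related GTPase of vacuole defence, had 84.2, 92.9 and 93.8 in DTx and 83.2, 88.8 and 90.1 in untreated libraries. Irgm1, a regulator of that family, was variable, with 68.2, 57.5 and 56.2 in DTx and 34.4, 55.2 and 75.8 in untreated libraries. Its lowest and its highest value both came from untreated libraries. A distal region (chr11:48855986-48857123), 8.12 kb beyond Irgm1, was stronger, at 91.6, 96.1 and 96.7 in DTx and 88.2, 93.7 and 91.8 in untreated libraries. Gbp2 stood at 70.01, 61.3 and 65.3 in DTx and 56.4, 53.6 and 67.7 in untreated libraries, at an end it shares with Gbp2b. Mx1 and Mx2, dynamin-like antiviral GTPases that this assembly annotates as transcribed pseudogenes, were called in 6 of 6 libraries too. Mx1 had 58.5, 50.5 and 60.8 in DTx and 42.2, 49.0 and 65.9 in untreated libraries, and Mx2 had 66.2, 68.6 and 61.6 in DTx and 56.0, 54.6 and 79.1 in untreated libraries.

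Of the 5 nucleic acid sensor and RNA-binding genes, 4 were called at a gene end in every library. Zbp1, a sensor of Z-form nucleic acid, stood at 89.7, 86.7 and 83.4 in DTx and 84.2, 85.9 and 92.3 in untreated libraries. Ifih1, which encodes the RNA sensor MDA5, was the steadiest, at 86.9, 85.4 and 86.7 in DTx and 83.1, 84.3 and 87.5 in untreated libraries. These sensors stayed at 83.1 or above in every list. Eif2ak2, the gene of the kinase PKR, had 53.9, 62.2 and 56.7 in DTx and 52.5, 43.3 and 69.0 in untreated libraries. Adar, which encodes an RNA-editing enzyme, had 66.9, 70.02 and 74.3 in DTx and 46.9, 68.8 and 72.2 in untreated libraries. A region inside Adar (chr3:89730422-89731284) was stronger than its gene end, at 86.5, 93.0 and 95.3 in DTx and 86.5, 91.0 and 93.4 in untreated libraries.

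Dhx58, the gene of the RNA sensor LGP2, was called at a gene end in 3 of 3 DTx libraries, at 32.2, 60.5 and 54.7, and in 1 of 3 untreated libraries, at 77.4 in untreated 3. The call depended on the 1 kb limit: in untreated 1 and 2 the nearest peak lay inside the gene 1.12 and 1.05 kb from its end, at the 38.8th and 54.8th percentile. That region (chr11:100702419-100703542) was present in 6 of 6 libraries. A separate weaker region over the higher-coordinate end (chr11:100704031-100704519), which also adjoins Kat2a, was present in 3 of 3 DTx libraries, at 32.2, 48.7 and 26.1, and in 1 of 3 untreated libraries, at 34.0 in untreated 3. The groups were thus not separated at Dhx58. The untreated libraries without this region were those with the shortest lists. In equal-length lists Dhx58 was again called at a gene end in 3 of 3 DTx and 1 of 3 untreated libraries. The part of list length in this was not tested.

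In the ISG15 and ubiquitin system, 5 of 6 genes were called at a gene end in every library, and the exception was Isg15 itself. Isg15, which encodes a ubiquitin-like modifier and is a standard readout of interferon exposure, had a start-site peak (chr4:156200775-156200980) in DTx 2, at 40.3, and in untreated 3, at 19.9. The 3 overlapping response element cores printed above, 78, 72 and 66 bases before the start, were covered in those 2 libraries and in no other. Both sides of the gene were called throughout: chr4:156202874-156203815, 2.06 kb before the start and near an end of Perm1, had 66.4, 61.9 and 58.9 in DTx and 34.6, 49.1 and 65.2 in untreated libraries. The region beyond the other end (chr4:156197149-156198267), near an end of Agrn, had 37.4, 40.1 and 29.6 in DTx and 25.6, 43.3 and 54.6 in untreated libraries. In the other 4 libraries the Isg15 promoter was not called, between regions that every library held.

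Trim30a, a TRIM-family regulator of innate signalling, had 93.8, 90.7 and 88.7 in DTx and 82.7, 82.8 and 90.7 in untreated libraries at its gene end, with its matched sequence covered in all 6. Trim25, a ubiquitin ligase acting on RIG-I, had 86.6, 92.3 and 93.9 in DTx and 80.6, 88.9 and 92.7 in untreated libraries. Usp18, which removes ISG15 from proteins and damps the interferon receptor, had 60.4, 72.2 and 72.4 in DTx and 76.6, 58.1 and 76.0 in untreated libraries. All 3 overlapped between the groups. A region 1.15 kb beyond Usp18 (chr6:121272067-121272812) was stronger than its gene end, at 88.1, 96.3 and 96.6 in DTx and 92.6, 94.3 and 93.2 in untreated libraries. Herc6, the main ISG15 ligase of mice, had 73.9, 72.7 and 77.2 in DTx and 62.6, 63.7 and 77.1 in untreated libraries. Dtx3l, a ubiquitin ligase, and Parp9, the ADP-ribosyltransferase family member it pairs with, share 1 peak between them (chr16:35938572-35940050), at 92.4, 87.5 and 89.2 in DTx and 75.5, 84.2 and 91.7 in untreated libraries. Parp14, another ADP-ribosyltransferase, had the weakest gene-end peak of the 33 genes called throughout, at 6.07, 27.4 and 21.7 in DTx and 0.479, 17.6 and 31.4 in untreated libraries.

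Among 9 membrane and other restriction factors, 7 were called at a gene end in every library. Rsad2 (viperin, which makes a chain-terminating nucleotide) had 85.5, 83.6 and 91.0 in DTx and 87.8, 83.7 and 85.2 in untreated libraries. Bst2 (tetherin, which holds budding virus at the membrane) had 83.7, 87.1 and 91.5 in DTx and 75.4, 86.2 and 89.97 in untreated libraries. Samd9l, an antiviral factor, had 92.3, 85.7 and 80.9 in DTx and 86.5, 78.8 and 85.4 in untreated libraries. These were the 3 strongest of the group. Cmpk2, a mitochondrial nucleotide kinase gene next to Rsad2, had 70.9, 68.1 and 62.9 in DTx and 55.6, 53.0 and 82.1 in untreated libraries. Ifi35, whose product takes part in innate signalling, had 57.7, 67.0 and 72.2 in DTx and 39.2, 53.8 and 80.5 in untreated libraries. Xaf1, an interferon-induced pro-apoptotic gene, had 44.8, 50.04 and 38.6 in DTx and 34.8, 47.6 and 61.6 in untreated libraries. In all 3 the highest value was that of untreated 3 and the groups overlapped. Ifitm3, which blocks virus entry at endosomes, had 54.9, 47.7 and 67.8 in DTx and 54.9, 42.4 and 60.4 in untreated libraries, but this peak lay at the end opposite to the start. The Ifitm3 start itself was called in 4 of 6 libraries, DTx 2 and 3 and untreated 2 and 3.

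Ifi44, an interferon-induced gene of the cytoplasm, and Rtp4 were called at a gene end in 2 and 0 of the 6 libraries. Ifi44 had a weak start-site peak (chr3:151749430-151750018) in DTx 1 and 2, at the 2.00th and 14.6th percentile, and none in DTx 3 or in untreated libraries. Its nearest peak in those 4 libraries was 343 kb away in DTx 3 and 21.1, 356 and 12.7 kb away in untreated libraries. Rtp4, a chaperone-like gene induced by interferon, spans 94.0 kb in the gene table. It had no gene-end peak within the 1 kb limit. Its nearest peak lay 4.04, 4.08 and 3.00 kb from an end in DTx and 4.10, 4.08 and 3.91 kb in untreated libraries. That peak (chr16:23609570-23611225) lay inside the gene model and was called in 6 of 6 libraries. It stood at 44.2, 61.2 and 64.1 in DTx and 46.2, 51.1 and 65.5 in untreated libraries. The missing gene-end call thus depends on where this model ends. Inside that model, chr16:23557083-23557947 was called in 6 of 6 libraries, at 83.2, 82.8 and 83.6 in DTx and 67.1, 77.6 and 84.9 in untreated libraries.

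Where a start site was known, most of these genes had open chromatin at it, though at some, such as Sp100, Adar and Irgm1, a stronger region lay elsewhere. Of the 32 genes with a start site in the RefSeq table, 26 (81.2%) had a peak within 1 kb of it in all 6 libraries and 0 had it in none, against 7946 (50.4%) and 6576 of the 15751 genes. The opposite end was called in all 6 libraries at 1 of the 32 genes (3.12%), Ifitm3, which is only 1.16 kb long, against 945 of the 15751 genes. At the start site itself a mean of 87.5% of the 32 genes lay under a peak in DTx and 83.3% in untreated libraries, against 49.6% and 49.8% of all genes. These shares, like the other values of this paragraph, come from the deposited lists, which differ in length. They were not computed at equal length. The median width of the start-site peak was 825, 889 and 950 bp in DTx and 853.5, 815 and 990 bp in untreated libraries. Over all genes it was 738, 868 and 915 bp in DTx and 777, 830 and 1007 bp in untreated libraries.

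**Figure D2:**
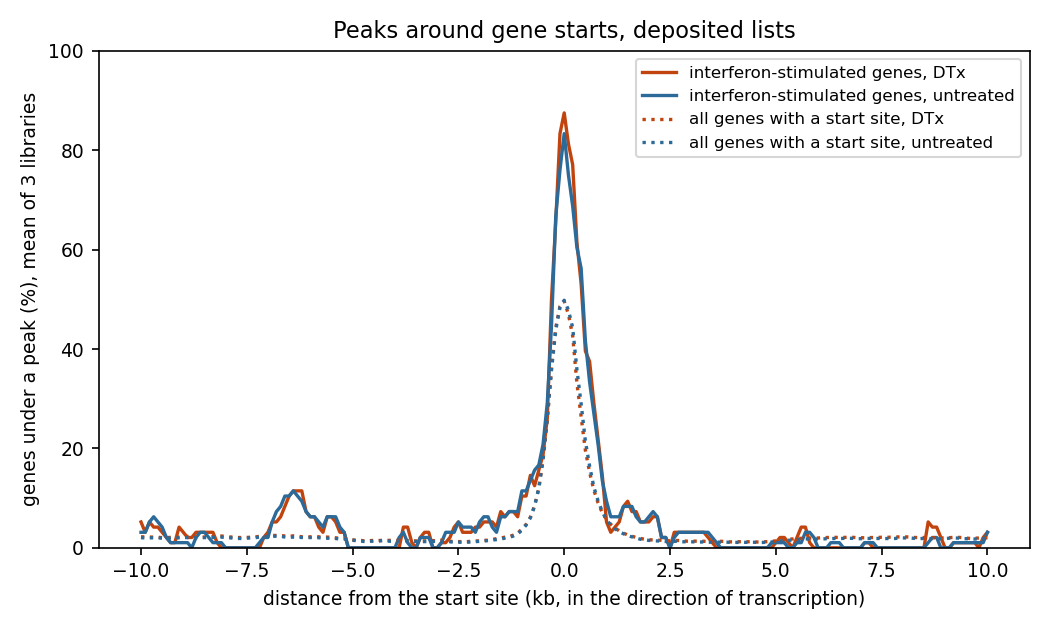
Share of genes under a peak (percent, mean of the 3 libraries of a group) at each distance from the start site (kb, in the direction of transcription), for the 32 interferon-stimulated genes with a start site (solid) and all 15751 genes with one (dotted), DTx in orange and untreated in blue. Coverage is highest at the start, at 87.5% in DTx and 83.3% in untreated libraries for the 32 genes, and the lines of the groups run close together. Values are from the deposited lists, which differ in length.

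Sequence matches near the start mostly lay in open chromatin. The 16 genes held 25 matches to the response element core, of which 15 (60.0%) lay under a peak in all 6 libraries and 2, both of Gbp3, in none. Over all genes with a start site there were 600 matches, 218 (36.3%) under a peak in all 6 libraries and 309 in none. A peak within 1 kb of the start was itself called in all 6 libraries at 81.2% of the 32 genes and 50.4% of all genes. Whether a match goes with open chromatin beyond this was not tested. Those covered in all 6 libraries belonged to Bst2, Eif2ak2, Gbp2, Ifih1, Ifit1, Ifit3, Igtp, Irgm1, Rsad2, Stat2 and Trim30a. The matches of Ifitm3, Isg15, Oas1a and Oas3 were covered in 2 or 3 libraries each. The gamma-activated site core, TTCNNNGAA on both strands, was in 8 of the 32 windows (25%), against 7.82% of all windows. Of its 8 matches, 5 (62.5%) lay under a peak in all 6 libraries, against 450 of 1297 (34.7%) over all genes. Bst2, Eif2ak2, Igtp, Ifitm3 and Oas1a held both kinds of match, which overlapped in Bst2 and Ifitm3.

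Beyond the gene ends, the neighbourhoods of the 41 genes held 150 distinct regions. Every library held 77 of them (51.3%), and 23 came from a single library. A region called in all 6 libraries lay in 39 of the 41 neighbourhoods, those of Oas1a and Ifi44 being the exceptions. The most peaks lay around Sp100 (6, 6 and 7 in DTx, 6, 6 and 8 in untreated libraries), Trim25 (6, 5 and 6 in DTx, 5, 5 and 7 in untreated libraries), Trim30a (6, 7 and 7 in DTx, 3, 5 and 6 in untreated libraries) and Samd9l (6, 4 and 6 in DTx, 2, 4 and 6 in untreated libraries). Trim25 had strong regions beyond its far end, with chr11:89024116-89024680 at 86.4, 94.1 and 94.7 in DTx and 86.8, 91.2 and 84.1 in untreated libraries. Trim30a held one inside the gene, chr7:104445771-104446806, at 91.3, 91.3 and 90.03 in DTx and 83.8, 84.7 and 86.7 in untreated libraries. Values of this region did not overlap between the groups in these lists of unequal length, and it was named after they were seen. The share of all regions without overlap was not counted. In equal-length lists its values overlapped, with DTx 3 at 83.5 and untreated 1 at 83.8. At Samd9l, 9 of 13 regions were called in 1 library only, between the 0.216th and 10.5th percentile. No region near the 41 genes was present in every library of one group while absent from the other group.

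The comparison of DTx with untreated libraries asks whether open chromatin at these genes differed on day 8 after the toxin. No interferon-stimulated gene separated the groups by the presence of a gene-end peak. In the deposited lists 36, 39 and 38 of the 41 genes had one in DTx libraries and 33, 36 and 39 in untreated libraries, or 37.7 ± 1.53 and 36.0 ± 3.00 (SD, n = 3 each). The difference of 1.67 genes was smaller than the spread of the untreated libraries, and it was 4 genes more in the broad-mode and 3 fewer in the narrow-mode pair. At equal length the counts were 34, 35 and 34 in DTx and 33, 36 and 35 in untreated libraries, or 34.3 ± 0.577 and 34.7 ± 1.53 (SD, n = 3 each). There the difference was 0 in the broad mode and 1 fewer in the narrow mode. Over all genes, the share with a gene-end peak in equal-length lists was 49.3 to 50.1% in DTx and 51.1 to 51.6% in untreated libraries.

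**Figure D3:**
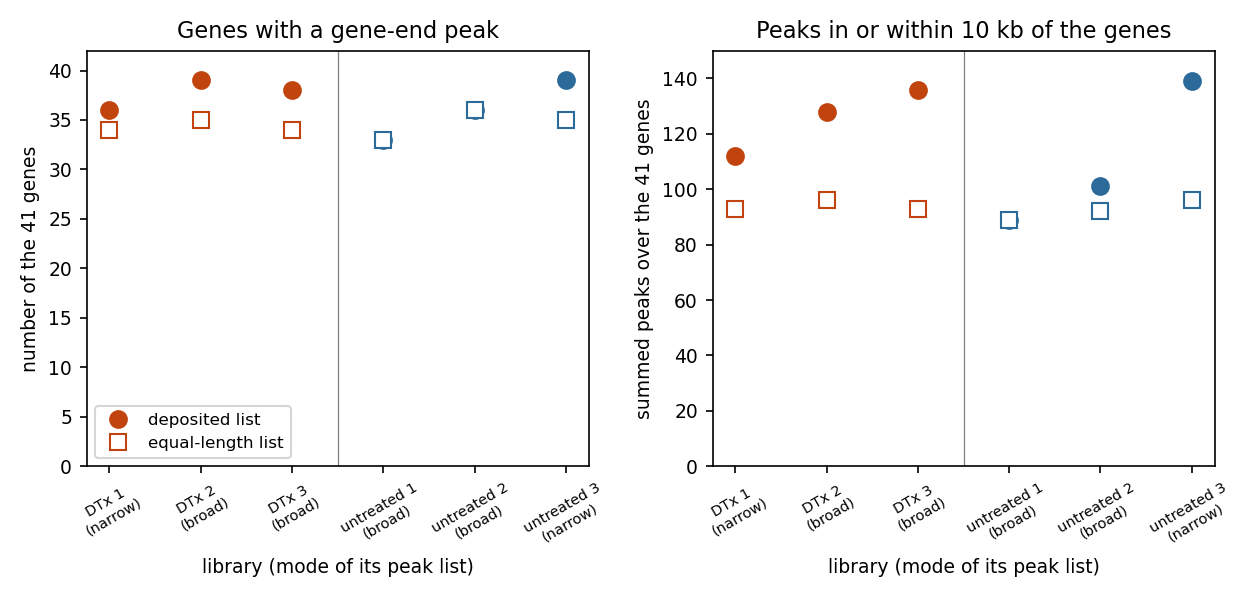
Number of the 41 genes with a gene-end peak (left) and number of peaks in or within 10 kb of them, summed over the genes (right), in each of the 3 DTx (orange) and 3 untreated (blue) libraries, with the mode of the list named under each; filled circles are deposited lists and open squares equal-length lists, which coincide for untreated 1. In deposited lists the summed peaks span 112 to 136 in DTx and 89 to 139 in untreated libraries, and in equal-length lists 93 to 96 in DTx and 89 to 96 in untreated libraries.

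Gene by gene, 0 of 41 had a gene-end peak in 3 of 3 DTx and 0 of 3 untreated libraries, where 0.0366% of all genes did, and 0 of 41 the reverse, where 0.00457% did. In equal-length lists both counts were 0 of 41 again, where 0.0274% and 0.324% of all genes met them. An exact two-sided permutation test cannot give a p under 0.1 with 3 libraries against 3. In deposited lists Oas1a, Oasl2, Dhx58 and Ifi44 were called in more DTx than untreated libraries (4 of 41, where 5.02% of all genes were) and Oas3 in fewer (1 of 41, where 2.36% were). In equal-length lists Dhx58 and Isg15 were called in more DTx libraries (2 of 41, against 2.03%) and Oas3, Parp14 and Xaf1 in fewer (3 of 41, against 5.07%). Dhx58 and Oas3 kept their side in both kinds of list, whereas Oas1a and Ifi44 had no gene-end peak in any equal-length list. In equal-length lists 31 of 41 genes were called in 6 of 6 libraries, where 46.5% of all genes were, and 3 (Oas1a, Ifi44 and Rtp4) in none, where 45.4% were.

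The peaks around the genes gave the same picture. Summed over the 41 neighbourhoods there were 112, 128 and 136 peaks in DTx and 89, 101 and 139 in untreated deposited lists, or 125 ± 12.2 and 110 ± 26.1 (SD, n = 3 each). The DTx libraries had 37 more in the broad mode and 27 fewer in the narrow mode; in each mode the group with more peaks was the one with the longer lists. In equal-length lists the sums were 93, 96 and 93 in DTx and 89, 92 and 96 in untreated libraries, or 94.0 ± 1.73 and 92.3 ± 3.51 (SD, n = 3 each), with 4 more in the broad and 3 fewer in the narrow mode. Per gene that is a mean of 2.29 peaks in DTx and 2.25 in untreated libraries, against 1.82 and 1.80 for all genes. In neither kind of list did the counts of a single interferon-stimulated gene lie wholly above or wholly below between the groups. Of all genes with a neighbourhood peak, 1.79% were higher and 0.0302% lower without overlap in deposited lists, and 0.838% and 0.793% in equal-length lists.

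The strength of gene-end peaks was compared by limma on the percentile within equal-length lists, fitted over the 10174 genes called in all 6 of them, which include 31 of the 41. These 31 passed in every library of both groups, so the fit says nothing of the other 10. At an adjusted p under 0.05 limma called 0 of the 31 genes higher and 0 lower in DTx, as it called 0 (0%) of the 10174 genes in either direction. At an unadjusted p under 0.05 limma had 1 of the 31, Gbp3, and 356 of the 10174, of which 329 (3.23%) were lower and 27 (0.265%) higher in DTx. Of the 31 genes, 12 had a higher and 19 (61.3%) a lower estimate in DTx, with a median of -1.25 percentile points. Over all genes 69.7% were lower, with a median of -1.31 points, so the set lay close to the shift of the whole table. The median standard error over the 31 genes was 5.35 points.

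**Figure D4:**
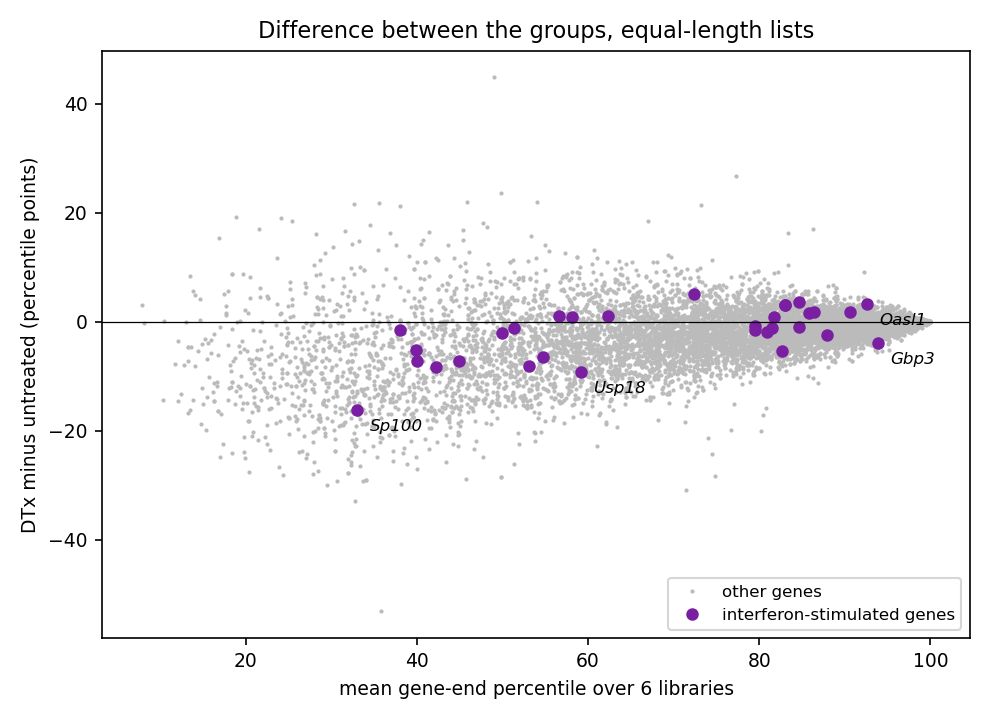
Difference in gene-end percentile, DTx minus untreated (percentile points, vertical axis), against the mean percentile over the 6 equal-length lists (horizontal axis), for the 31 interferon-stimulated genes called in all 6 lists (purple) and the other genes of the fit (grey). The purple points lie within the grey cloud, with Sp100 lowest at -16.3 points.

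The largest difference was at Sp100 and the lowest p at Gbp3, and these were the 2 of 31 genes whose percentiles in equal-length lists did not overlap between the groups, both lower in DTx, where 7.83% of all genes did the same. None of the 31 was higher without overlap, where 1.22% of all genes were. At its start, Sp100 had 28.0, 13.6 and 33.2 in DTx and 39.9, 40.5 and 43.1 in untreated libraries, with DTx 2 farthest below. The limma difference was -16.3 ± 7.76 points (SE, n = 3 each, unadjusted p = 0.0583, adjusted p = 1.00), and it was -16.8 in the broad and -15.2 in the narrow mode. Gbp3 had 91.0, 91.5 and 93.1 in DTx and 97.6, 95.5 and 94.4 in untreated libraries, all near the top of their lists. Its limma difference was -3.92 ± 1.44 points (SE, n = 3 each, unadjusted p = 0.0190, adjusted p = 1.00), with -4.22 in the broad and -3.33 in the narrow mode. Neither gene passed the adjustment over all genes, and in the deposited lists Sp100 overlapped between the groups while Gbp3 did not. The share of all genes without overlap in the deposited lists was not counted.

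**Figure D5:**
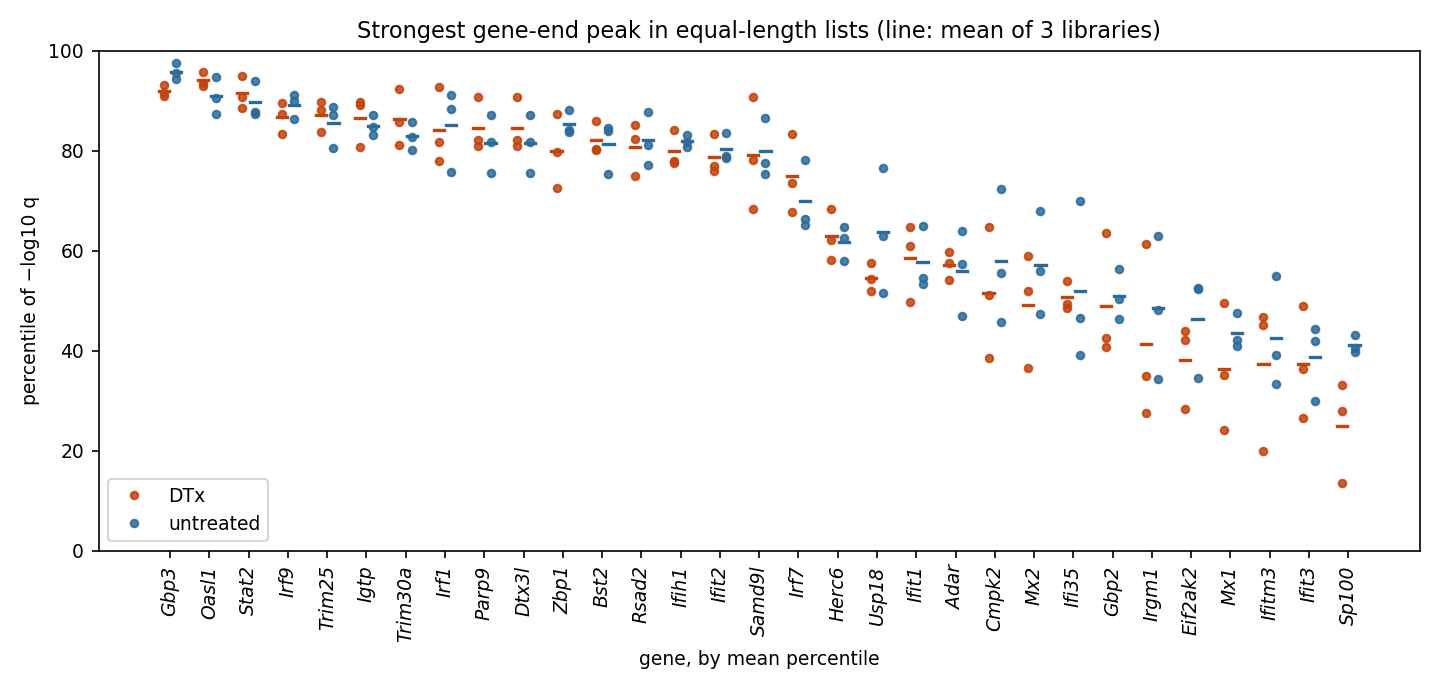
Percentile of −log10 q of the strongest gene-end peak (vertical axis) in each DTx (orange) and untreated (blue) equal-length list for the 31 genes called in all 6, ordered by mean percentile; short lines are the means of 3 libraries. Points of the groups interleave except at Sp100 (13.6 to 33.2 in DTx, 39.9 to 43.1 in untreated libraries) and Gbp3 (91.0 to 93.1 in DTx, 94.4 to 97.6 in untreated libraries).

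The next lowest p-values belonged to genes whose groups overlapped. Oasl1 had 93.0, 95.8 and 93.6 in DTx and 87.4, 90.6 and 94.8 in untreated libraries, a limma difference of 3.17 ± 2.07 points (SE, n = 3 each, unadjusted p = 0.151), but 5.68 in the broad and -1.83 in the narrow mode. Usp18 had 51.9, 57.5 and 54.3 in DTx and 76.6, 51.6 and 63.0 in untreated libraries, a limma difference of -9.21 ± 6.80 points (SE, n = 3 each, unadjusted p = 0.201), with untreated 1 far above the rest. Zbp1 had 87.4, 79.7 and 72.5 in DTx and 84.2, 83.7 and 88.1 in untreated libraries, a limma difference of -5.48 ± 4.002 points (SE, n = 3 each, unadjusted p = 0.196). Differences of both signs thus appeared among genes of the same response, and none of these passed limma's test. Trim30a differed by 3.59 ± 3.49, Irf7 by 4.99 ± 5.35 and the shared peak of Dtx3l and Parp9 by 3.14 ± 3.98 points, DTx minus untreated (limma, SE, n = 3 each). Every adjusted p of the 31 genes was 1.00 by limma.

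The rest of the pathway was compared in the same lists. Of 21 interferon genes, 0 were called at a gene end in every library and 16 in none, Ifnb1 and Ifnk among them. Ifne, the epithelial interferon epsilon gene, was called in 3 of 3 DTx libraries, at 44.5, 50.5 and 45.9, and in 0 of 3 untreated libraries, as 0.0366% of all genes were. In equal-length lists Ifne was again called in 3 of 3 DTx libraries, at 32.6, 24.3 and 10.5, and in 0 of 3 untreated libraries, as 0.0274% of all genes were. Ifng was called in 3 DTx libraries, at 61.2, 59.4 and 70.1, and in untreated 3, at 69.0. Ifna1 was called in 3 DTx and 2 untreated libraries, Ifna4 in 1 and 0, and Ifnz in 1 and 2, and none of the 5 called genes was in the limma fit. Of 12 genes for receptors, JAK kinases and STATs, 11 were called at a gene end throughout, Stat4 having none. Ifngr1, a chain of the interferon gamma receptor, stood at 98.5, 98.9 and 98.9 in DTx and 98.5, 98.4 and 98.8 in untreated libraries. Ifnar1, a chain of the type I receptor, stood at 95.2, 93.0 and 90.4 in DTx and 93.4, 93.4 and 94.1 in untreated libraries. Tyk2 stayed between 96.1 and 98.7 and Jak1 between 90.5 and 94.4 over the 6 lists. Ifngr2, the other chain of the interferon gamma receptor, was weaker, at 46.6, 47.4 and 49.1 in DTx and 36.0, 43.4 and 67.0 in untreated libraries. Ifnlr1, a chain of the type III receptor, stood at 36.8, 72.5 and 78.4 in DTx and 39.7, 66.2 and 80.4 in untreated libraries. The receptor genes were thus called throughout at high and at middling strength, while most ligand genes were not called.

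Of 16 genes for sensors, adaptors and factors that induce interferon, 13 were called at a gene end throughout, and of 15 negative regulators, such as Socs1 and Ptpn6, 13 did, with Ptpn1 and Usp13 in none. Of 89 other interferon-stimulated genes outside the set, 63 (70.8%) had one in all 6 libraries and 13 had none. All of these stand beside the 49.2% of all genes. Per library, 67 to 73 of the 89 were called in DTx and 68 to 74 in untreated libraries, so the groups overlapped there as well. Limma called 0 genes of these lists at an adjusted p under 0.05, as it called 0 of all genes.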

How the data were processed

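The submitters' processing notes name Trim Galore 0.4.3, Bowtie2 2.3.2, MACS2 2.1.1 and the mm10 build. The sources used here do not give read totals or the handling of the Tn5 shift and of duplicates, so the depth is unknown. The authors deposited a separate peak list for each library, with pileup (read coverage signal) and fold enrichment (a ratio) per the file headers. The −log10 p-value and −log10 q-value columns of the deposited lists have damaged headers and were told apart by their order and by their values. These per-peak numbers are the authors' own and were used only to rank or filter within a list. The lowest −log10 q was 1.30 and 1.33 in the narrow-mode lists and 1.00 to 1.02 in the broad-mode lists, so the lists were not cut at 1 threshold. Each list lost its 2 mitochondrial peaks.

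The gene table (RefSeq, GRCm38.p6, the build of mm10) gave 21883 protein-coding genes, plus Mx1 and Mx2, and has no strand or exons. Start sites came from the RefSeq promoter table. Coordinates are 1-based, and neighbouring genes can share a peak. At 8 genes of the set a gene-end region also lay within 1 kb of an end of another gene. Percentiles give ties their mean rank. Limma 3.58.1 (trend and robust, R 4.3.3) was fitted to the percentiles of the 10174 genes called in all 6 equal-length lists, with Benjamini-Hochberg adjustment at 0.05, and was tested on simulated data. Other steps used Python 3.11.15 with pandas 2.3.3 and NumPy 2.4.6. The genes, lists and tests were chosen with earlier results of these data known.

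Named with values per library were genes not called everywhere, the 4 of lowest limma p in each direction, the 6 of highest and of lowest minimum percentile, and the 4 with most neighbourhood peaks. Values per library of other genes of the set are given by role, outside this rule and chosen after their values were seen. Promoters were printed for up to 8 of the named genes with a match. Alternatives were the distances, a −log10 q of at least 5, peak midpoints, ranking by fold, the modes apart, a term for mode, a replicate block, the log2 odds scale, no filter, and each library left out. Values of 1 pathway gene outside the set are not reported here.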

Additional observations from a re-analysis of the deposited data

How the results depend on the processing

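Of 96 alternatives for results over all the genes, 87 kept the value within the spread or count limit. All 104 alternatives for 8 single genes kept the direction of the difference, with limma's adjusted p between 0.545 and 1.00. These 8 genes were picked for low p in the same libraries, so a kept direction was partly built in. The 104 did not include the modes apart. With the modes apart only Oasl1 of the 8 changed sign, with 5.68 points in the broad and -1.83 in the narrow mode. The genes with a gene-end peak in all 6 lists numbered 33 to 34 when 1 library was left out, a step that cannot lower the count. They numbered 30 with only peaks of a −log10 q of at least 5 and 36 with a limit of 2 kb. The difference in genes with a gene-end peak, DTx minus untreated, was 1.67 in the deposited lists, -3 in the narrow-mode pair and 0.167 to 3.17 without 1 library. In equal-length lists it was -0.333, but 1.67 with only peaks of a −log10 q of at least 5, and -1.17 to 0.333 without 1 library. The difference in summed neighbourhood peaks was 1.67 in equal-length lists, 8 with 50 kb either side, 15.7 in the full lists, -3 in the narrow-mode pair and 0 to 3.5 without 1 library. Longer lists hold more peaks near any gene, and the full lists differ in length. Genes with gene-end calls that did not overlap numbered 0, and 0 to 1 without 1 library: Ifi44 (higher in DTx) without DTx replicate 3 and Dhx58 (higher) without untreated replicate 3. Neighbourhood counts that did not overlap numbered 0, and 0 to 3 without 1 library: Dhx58 and Herc6 (higher in DTx) and Ifit1 (lower) without untreated replicate 3. Limma called 0 of the 10174 genes, and 0 to 1 without 1 library (1, lower in DTx, without DTx replicate 3), and 0 of the interferon-stimulated genes in every such fit. The cause of these shifts was not tested. Deviations of same-numbered libraries had correlations of 0.160, 0.142 and -0.129 over genes. Between different numbers they ranged from -0.422 (DTx 1 with untreated 2) to 0.409 (DTx 3 with untreated 2). List mode also differed within some numbers, so these values cannot decide whether same-numbered libraries were paired. With the replicate block limma called 0 genes (323 of unadjusted p under 0.05, against 356 without the block) and 0 interferon-stimulated genes, and not every library correlated best with its own number. A fit of the broad-mode libraries alone, added after seeing the data, called 0 genes (592 of unadjusted p under 0.05). With no read totals, weak peaks such as those of Oas1a and Ifi44 cannot be weighed against depth.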
